A study of Mus musculus with 20 samples.

Results

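The miR-297, miR-466, miR-467 and miR-669 families are the mouse miRNAs that come in large part from 1 intron-borne cluster within Sfmbt2 on chromosome 2. Their probes were taken by name, as every probe whose gene name on the array starts with 1 of the 4 family names, with any letter or strand, and 43 of the 655 probes met this rule. There were 4 probes for miR-297, 16 for miR-466, 11 for miR-467 and 12 for miR-669. The array annotation places 35 of them on chromosome 2 only, miR-297a on chromosomes 2, 7 and 10, and 7 on other chromosomes only.

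The signal was measured on Illumina bead arrays in epithelial cells of the ileum from male C57BL/6J wild type mice aged 4 months. The epithelium was released in steps by chelation and shaking (a modified Weiser method), which gave 4 arrays for each of 5 fractions. C1 is the crypt fraction, V3, V2 and V1 lie between in this order, and V0 is the villus tip. The arrays lay on 4 slides, with V0, V1 and V2 on slides 1 and 2, V3 on slides 2 and 3, and C1 on slides 2, 3 and 4. V0 and C1 share slide 2 only, where C1 replicate 3 is the only C1 array. Differences between V0 and C1 and trends over the axis can therefore not be fully told apart from differences between slides. No mouse was treated or carried a mutation, the fractions are enriched and not pure, and the labels do not say which arrays share a mouse, so arrays were compared without pairing and p-values measure the spread between these arrays.

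miRNAs are cut from RNA hairpins, and either strand of a hairpin, called 5p or 3p after the side it lies on, can enter the silencing complex. In older names an asterisk marks the strand taken to be the minor one. Bases 2 to 8 of the mature miRNA, the seed, pair with target mRNAs. Sfmbt2 encodes a Polycomb group protein and is imprinted in mouse extraembryonic tissue, and the hairpins within it arose by repeated duplication of a short unit rich in simple repeats, so that members of 1 family differ by few bases and signals can be shared between probes.

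In RefSeq gene models of GRCm38.p6, 71 miRNA genes lie within Sfmbt2, and all 71 belong to these families (5 of miR-297, 23 of miR-466, 14 of miR-467 and 29 of miR-669). The first genes in chromosome order are Mir466m, Mir466f-1, Mir669f, Mir669e, Mir669b and Mir669d, and the last are Mir669i and Mir669h. Annotation also shows how closely the probes are related, since 3 of the 43 probes are assigned to several miRNAs each. The probe called miR-466a-3p stands for 5 names, which include miR-466b-3p, miR-466c-3p and miR-466e-3p, the probe called miR-297c* also for miR-297a* and miR-297b-3p, and the probe called miR-467a* also for miR-467d*.

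Mature sequences for 6 of the 43 members, all encoded outside chromosome 2, were taken from RefSeq (GRCm38.p6), and the other 37 are named only. They are shown because the families hold sequences rich in U and G and others rich in C and A, and because miR-467h and miR-466i are the members against which the others are set below. The seed is in capitals and the rest in lower case, from 5′ to 3′. miR-466i was matched to the 3p strand, the only strand of its hairpin in the table.
miR-466j: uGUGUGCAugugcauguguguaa
miR-466k: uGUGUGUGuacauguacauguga
miR-467h: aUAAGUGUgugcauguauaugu
miR-466i: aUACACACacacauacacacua
miR-467f: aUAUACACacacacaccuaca
miR-467g: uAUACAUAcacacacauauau

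G and U made up 73.9% of miR-466j, 69.6% of miR-466k and 68.2% of miR-467h, against 13.6% of miR-466i, 14.3% of miR-467f and 28.6% of miR-467g. The median over the 1679 mature sequences of the table was 54.5%. A share of G and U as high as that of miR-467h was found in 11.7% of all mature sequences, and one as low as that of miR-467g in 3.34%. The 6 members had 6 different seeds, and only the seed of miR-467h was shared with another miRNA of the table, miR-668-5p. Since the table holds no sequence for the other 37 members, seeds shared with those could not be seen. In GRCm38.p6 the mature miR-467h lies at chr9:115381898-115381919 on the plus strand outside any gene model used here, miR-466j at chr10:60960802-60960824 (plus) likewise, and miR-466k at chr3:85467396-85467418 (plus) within Gm31419. miR-466i lies at chr13:17747552-17747573 (plus) within Cdk13, miR-467f at chr11:69635419-69635439 (minus) within Fxr2 and miR-467g at chr5:34732872-34732892 (minus) within Grk4.

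Values are log2 of the quantile normalized signal that the authors deposited, in which no background was subtracted. A probe was called detected on an array when its detection p was at most 0.01. Of all 655 probes, 386 to 461 were detected on each V0 array, against 306 to 387 on each C1 array, with 367 to 475 on the arrays of the other fractions except V2 replicate 3 (348). C1 replicate 4 had the fewest of all, 306. The 8 epithelial miRNA probes (miR-200 family, miR-141, miR-429, miR-192, miR-194 and miR-215) were detected on all V0 arrays for 8 of 8 and on all C1 arrays for 5 of 8, and their mean per array was 14.84 to 15.20 in V0 and 12.29 to 14.77 in C1. Markers of other cells were also present. The array means were 11.73 to 12.48 in V0 and 10.29 to 11.99 in C1 for 6 muscle probes, 12.08 to 13.78 in V0 and 10.79 to 13.09 in C1 for 5 leukocyte probes, 11.61 to 14.21 in V0 and 10.93 to 12.75 in C1 for 2 endothelial probes, and 10.76 to 11.91 in V0 and 9.48 to 10.59 in C1 for 3 erythroid probes, of which miR-144 was detected on no array. Among the muscle probes miR-1, detected on 4 arrays, had means of 9 in V0 and 10.08 in C1, and the others were higher in V0. The 3 neuronal probes had array means of 9.40 to 11.46 in V0 and 9.23 to 9.47 in C1, where 2 of them were detected on no array. The part of these cells in any difference below was not tested, and fewer cells of a type cannot be told apart from less RNA per cell.

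Much of each family was below detection. Between 24 and 29 members were detected on each V0 array, against 18 to 20 on each C1 array. In percent of the 43 members this was 41.9 to 46.5 for C1, 51.2 to 62.8 for V3 and for V2, 53.5 to 62.8 for V1 and 55.8 to 67.4 for V0. The share of all 655 probes detected went the same way, with medians of 66.2% in V0 and 57.6% in C1. Over the 20 arrays, 7 members were detected throughout (miR-297a, miR-466a-5p, miR-466f, miR-466f-5p, miR-466i, miR-467a and miR-467h), 3 were detected nowhere (miR-466b-5p, miR-466j and miR-669g), and 12 on 1 to 5 arrays. Of the 3 members with a printed U- and G-rich sequence, miR-467h was detected on 20 arrays, miR-466k on 11 and miR-466j on 0. Of those rich in C and A, miR-466i was detected on 20, miR-467f on 19 and miR-467g on 1.

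**Figure D1:**
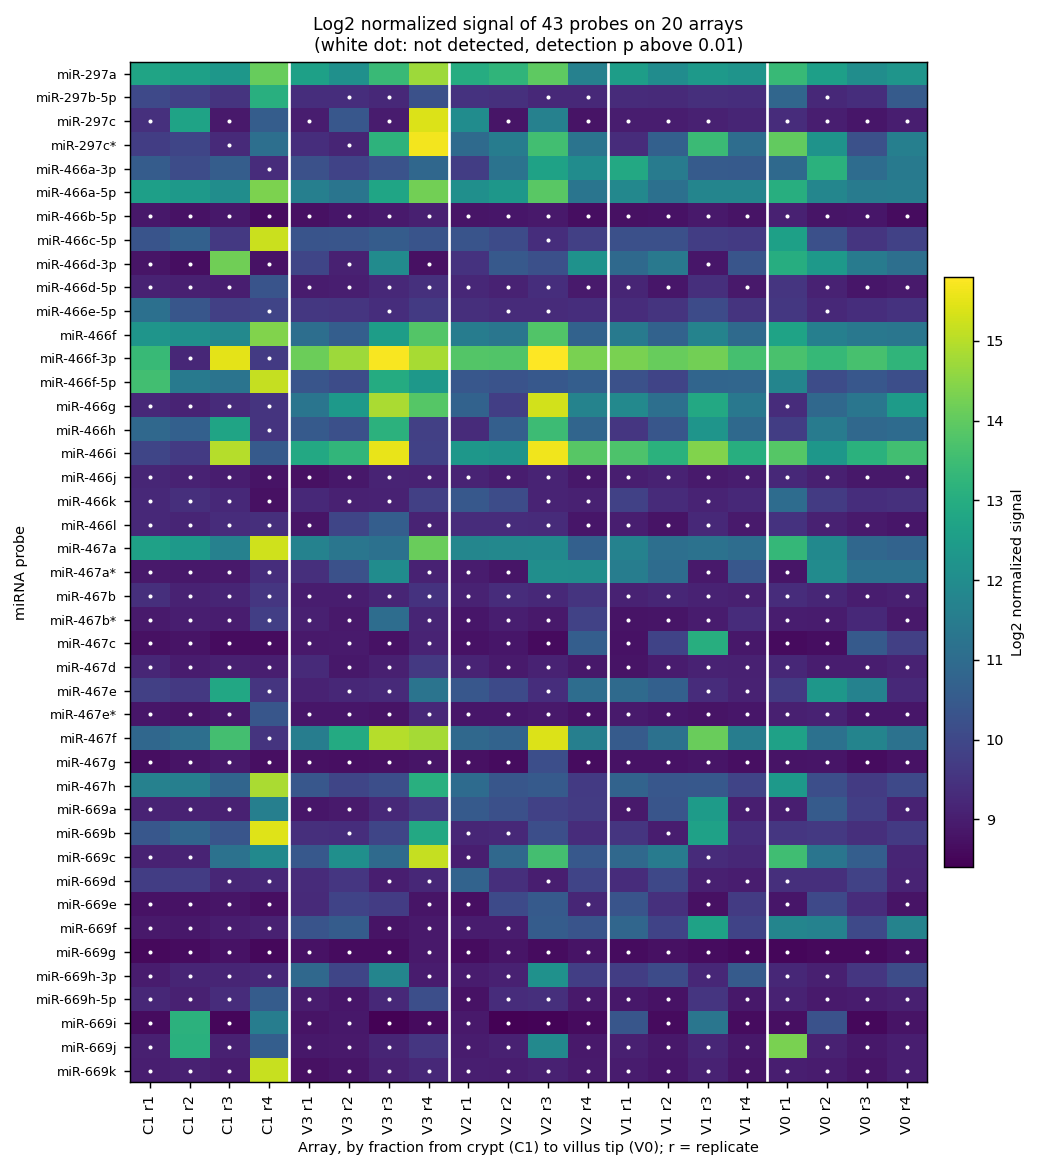
Log2 normalized signal (colour) of the 43 probes (rows) on the 20 arrays (columns, ordered from crypt C1 to villus tip V0), with a white dot where a probe was not detected. miR-669f is undetected on all 4 C1 arrays and detected on all 4 V0 arrays, and the C1 replicate 4 column holds the highest value of 13 of the 40 members that were detected anywhere. Among the 13 is miR-467b, not detected on that array. How many of all probes are highest on it was not counted.

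Whether these miRNAs differ between villus tip and crypt was asked first. A probe was tested with limma when it was detected on all 4 arrays of either fraction. A probe can thus enter through a single fraction, most easily one where its signal is high. A tested probe passed at a Benjamini-Hochberg adjusted p of at most 0.05 and a difference of at least 2-fold. None of the 20 members tested passed between V0 and C1, where 2 of all 321 probes tested passed (0.623%). At an unadjusted p under 0.05 limma gave 4 members, miR-669f and miR-466a-3p with higher and miR-466f-5p and miR-669b with lower signal in V0, against 16.8% of all probes tested, and the exact rank-sum test gave 3. With 4 against 4 arrays the smallest two-sided p of the exact rank-sum test is 0.0286, which 28 of the 321 probes reached, and since 184 would have to reach it for any to pass after adjustment, this test can give no call here. Of the 20, 10 had a higher and 10 a lower mean in V0, and over all 43 members the median log2 difference was -0.13, against -0.06 over all 655 probes.

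Every V0 array lay above every C1 array for 2 of the 43 members, miR-669f and miR-466a-3p, where this held for 3.21% of all probes. The reverse, all V0 arrays below all C1 arrays, was seen for miR-466e-5p and miR-669b, and it held for 3.97% of all probes. In each direction 2 of the 43 members are 4.65%, near the share over all probes.

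miR-669f, encoded near the start of the cluster, had the largest difference between V0 and C1 of all members. Its log2 signal was 11.78, 11.68, 10.04 and 11.70 on the V0 arrays, against 8.90, 8.88, 8.98 and 9.07 on the C1 arrays. No C1 array detected it, so the V0 mean was at least 3.23-fold higher than the lowest detectable signal on the C1 arrays (limma adjusted p = 0.0714). "At least" here sets the V0 mean against, for each C1 array, the higher of the lowest detected signal and the probe's own signal. V0 replicate 3 was the low array of its fraction, and it still lay above all C1 arrays. miR-669f entered the test only through V0, where it is high. With no filter on detection its limma adjusted p was 0.0974.

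The mean signal of miR-669f rose at each step from C1 to V0, by little from V3 to V2, but the trend did not pass. It was detected on 0 C1, 2 V3, 2 V2, 4 V1 and 4 V0 arrays, and the mean was 8.96 ± 0.09 for C1, 9.65 ± 0.92 for V3, 9.70 ± 0.85 for V2, 10.82 ± 1.31 for V1 and 11.30 ± 0.84 for V0 (SD, n = 4 arrays each). The arrays of neighbouring fractions overlapped in every pair, V3 and C1 included. A linear trend over the 5 fractions gave a slope of 0.59 log2 units per step (SE 0.13, limma adjusted p = 0.0513), which did not pass. miR-669f entered this test only through V1 and V0, and that of V1 against C1 only through V1, where it is high. The trend did pass with the spread estimated over all probes (limma adjusted p = 0.0423), with neqc (limma adjusted p = 0.0207), with no normalization (limma adjusted p = 0.00641), where the median of all probes was 0.73 higher in V0 than in C1, without the array of fewest detected probes in each fraction (limma adjusted p = 0.0294), and when any of 8 arrays, V0 replicates 1 and 3 among them, was left out in turn. It missed the threshold with median centring of the arrays, with no filter on detection, with slide as a fixed or a random block, with each array's count of detected probes as a covariate, or when any of the other 12 arrays, the 4 C1 arrays among them, was left out. In V1, where no C1 array detected it either, miR-669f was at least 2.32-fold higher (limma adjusted p = 0.148). Before normalization the signal was 1497, 4842, 2113 and 4886 units in V0, against 260 to 583 units in C1.

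The genes that follow Mir669f in the cluster had other values. miR-669e, its neighbour, had a difference in log2 signal of 0.49, was detected on 2 of 4 V0 arrays and 0 of 4 C1 arrays and was not tested. miR-669b, the next gene, differed in the opposite direction. Its log2 signal was 9.56, 9.63, 9.41 and 9.65 on the V0 arrays, against 10.40, 10.80, 10.36 and 15.44 on the C1 arrays, a difference in log2 signal of -2.19 (SE 1.02, limma adjusted p = 0.287). The groups did not overlap, but 1 array set the size, and without C1 replicate 4 the difference was -0.96. miR-669d had a difference of -0.03 and was not tested.

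miR-466e-5p had a lower mean than in C1 in each of the other fractions. It had 9.59, 9.25, 9.38 and 9.49 on the V0 arrays, of which replicate 2 did not detect it, against 11.12, 10.37, 9.81 and 9.91 on the C1 arrays, of which replicate 4 did not. The log2 difference was -0.88 and was not tested, since neither fraction detected the probe on all 4 arrays. Against C1 the V2 and V3 arrays did not overlap either, with means of 9.35 ± 0.05 in V2 and 9.53 ± 0.12 in V3, against 10.30 ± 0.60 in C1 (SD, n = 4 each). In V1, which detected it on all arrays, the difference was -0.69 (SE 0.34, limma adjusted p = 0.21). Most of these levels are close to the detection limit, and with no normalization the difference between V0 and C1 was 0.38, where the median of all probes moved to 0.73.

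**Figure D2:**
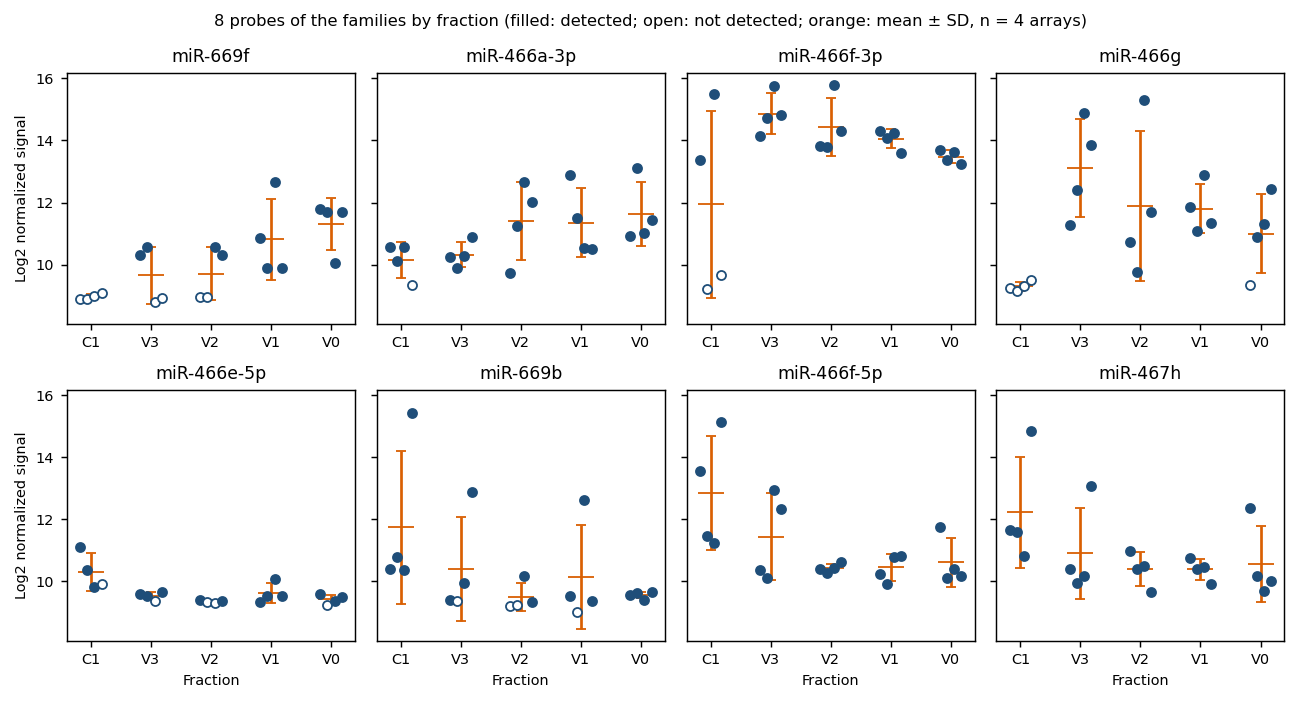
Log2 normalized signal (vertical axis) of 8 members by fraction (horizontal axis, C1 to V0), 1 point per array, filled where detected and open where not, with the mean and SD (n = 4) in orange. miR-669f, miR-466a-3p, miR-466f-3p and miR-466g have their lowest mean in C1, and miR-466e-5p, miR-669b, miR-466f-5p and miR-467h have their highest mean there.

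For miR-466a the 3p and the 5p probe had differences of opposite sign. miR-466a-3p had 10.92, 13.12, 11.01 and 11.45 on the V0 arrays, against 10.55, 10.13, 10.57 and 9.35 on the C1 arrays, a difference in log2 signal of 1.48 (SE 0.66, limma adjusted p = 0.268). Its 5p partner miR-466a-5p had 13.05, 11.80, 11.49 and 11.51 in V0, against 12.57, 12.37, 12.04 and 14.34 in C1, a difference of -0.87 (SE 0.68, limma adjusted p = 0.409). All V0 arrays were thus above all C1 arrays for the 3p probe, and the ranges overlapped for the 5p probe. The signs were not opposite in every setting. With no normalization, where the median of all probes was 0.73, the differences were 2.63 for the 3p and 0.56 for the 5p probe. With each array's count of detected probes as a covariate they were 1.72 and 0.40. Over the axis miR-466a-3p had a slope of 0.40 per step (SE 0.14, limma adjusted p = 0.139).

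For miR-466f, whose hairpins lie at the start of the cluster, the signs were also opposite, and again not in every setting. miR-466f-3p had 13.68, 13.36, 13.64 and 13.24 on the V0 arrays, against 13.38, 9.22, 15.50 and 9.67 on the C1 arrays, a difference in log2 signal of 1.54 (SE 0.97, limma adjusted p = 0.326). The C1 arrays fell into low and high values for this probe, with replicates 2 and 4 undetected and replicate 3 among the highest of all 20 arrays. The difference of miR-466f-3p was -0.53 with slide as a fixed block and -2.06 on slide 2 alone, the same sign as for miR-466f-5p. miR-466f-5p had 11.76, 10.11, 10.40 and 10.17 in V0, against 13.55, 11.45, 11.25 and 15.14 in C1, a difference of -2.23 (SE 0.76, limma adjusted p = 0.202). Only V0 replicate 1 reached into the C1 range, and without C1 replicate 4 the difference was -1.47. The probe named miR-466f, annotated to chromosome 13, had 12.70, 11.58, 11.35 and 11.30 in V0, against 12.26, 12.10, 11.89 and 14.39 in C1 (difference -0.93, limma adjusted p = 0.423).

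miR-466g was detected in every fraction except C1. It had 9.35, 10.90, 11.30 and 12.45 on the V0 arrays, of which replicate 1 did not detect it, against 9.25, 9.15, 9.32 and 9.50 on the C1 arrays, none of which did. The mean was at least 2.62-fold higher in V0, which was not tested. Its largest difference was at the villus base, where V3 had 11.28, 12.41, 14.87 and 13.85 and lay at least 11.3-fold above C1 (limma adjusted p = 0.119). V2 was at least 4.82-fold higher than C1 (limma adjusted p = 0.178) and V1 at least 4.56-fold (limma adjusted p = 0.165). With no C1 array detecting it, miR-466g entered these tests only through the villus fractions, where it is high. Every array of V3, V2 and V1 lay above every C1 array. In V3 the probe passed with slide as a random block, with neqc, with each array's count of detected probes as a covariate, without the array of fewest detected probes in each fraction and on slide 3 alone (2 V3 and 2 C1 arrays). In V3 it passed in no other setting tried, among them slide as a fixed block and slide 2 alone (2 V3 arrays and 1 C1 array).

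miR-466i, rich in C and A, was low on all C1 arrays but 1. It had 13.85, 12.31, 13.12 and 13.57 in V0, against 9.96, 9.66, 14.98 and 10.50 in C1, a difference in log2 signal of 1.94 (SE 1.14, limma adjusted p = 0.319). On slide 2, where C1 replicate 3 is the only C1 array, the difference was -1.63. miR-466d-3p was high on the same C1 array, with 13.01, 12.37, 11.47 and 11.10 in V0, against 8.83, 8.68, 14.19 and 8.75 in C1 (difference 1.87, SE 1.06, limma adjusted p = 0.302). Its difference was 3.23 without C1 replicate 3 (limma adjusted p = 0.0641) and -2.91 on slide 2. miR-466h, a member tied to cell death in cultured hamster cells, had 9.75, 11.47, 10.90 and 10.99 in V0, against 10.89, 10.66, 12.72 and 9.51 in C1, a difference of -0.17 (SE 0.89, limma adjusted p = 0.911). C1 replicate 3 was the high array of its fraction for all 3 probes.

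The last members of this family that were tested were miR-466c-5p and miR-466k. miR-466c-5p had 12.62, 10.20, 9.53 and 9.83 on the V0 arrays, against 10.32, 10.67, 9.64 and 15.21 on the C1 arrays, a difference in log2 signal of -0.91 (SE 0.88, limma adjusted p = 0.513) that was 0.34 without C1 replicate 4. miR-466k, rich in U and G, had 11.01, 9.68, 9.37 and 9.44 in V0, against 9.24, 9.40, 9.25 and 8.74 in C1. No C1 array detected miR-466k and its V0 mean was at least 1.2-fold higher (limma adjusted p = 0.319). It entered this test only through V0. miR-466d-5p (detected on 3 of the 20 arrays) and miR-466l (4), which is known to raise interleukin-10 in mouse macrophages, were not tested, nor were miR-466b-5p and miR-466j, which no array detected.

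In the miR-467 family 4 probes were tested between V0 and C1, of which miR-467a and miR-467h had the lower and miR-467e and miR-467f the higher mean in V0. miR-467a had 13.34, 11.91, 10.86 and 10.76 in V0, against 12.63, 12.41, 11.65 and 15.27 in C1, a difference in log2 signal of -1.28 (SE 0.77, limma adjusted p = 0.319). miR-467h, encoded on chromosome 9, had 12.37, 10.18, 9.70 and 10.02 in V0, against 11.65, 11.60, 10.82 and 14.85 in C1, a difference of -1.66 (SE 0.81, limma adjusted p = 0.291). V0 replicates 1 and 2 lay within the C1 range for miR-467a, and V0 replicate 1 alone did for miR-467h. Without C1 replicate 4 the differences were -0.52 for miR-467a and -0.79 for miR-467h. miR-467a* was detected on 0 C1, 3 V3, 2 V2, 3 V1 and 3 V0 arrays and its V0 mean exceeded the C1 bound at least 2.22-fold, which was not tested.

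miR-467e and miR-467f showed no set direction. miR-467e had 9.67, 12.33, 11.68 and 9.24 in V0, against 9.79, 9.64, 12.85 and 9.55 in C1, a difference in log2 signal of 0.27 (SE 0.81, limma adjusted p = 0.847). miR-467f, rich in C and A, had 12.63, 11.15, 11.75 and 11.20 in V0, against 10.88, 11.09, 13.59 and 9.52 in C1, a difference of 0.41 (SE 1.08, limma adjusted p = 0.817). miR-467f was higher at the villus base, where V3 had 11.54, 12.93, 14.98 and 14.80, but the arrays overlapped with C1 and the difference of 2.29 did not pass (SE 1.07, limma adjusted p = 0.487). The other 6 members of the family, miR-467b, miR-467b*, miR-467c, miR-467d, miR-467e* and miR-467g, were detected on 1 to 5 arrays each and were not tested. Of these, miR-467c reached 13.04 on V1 replicate 3 and was at most 8.79 on the C1 arrays.

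The miR-297 family had 1 probe that was detected throughout. miR-297a had 13.38, 12.57, 12.04 and 12.26 on the V0 arrays, against 12.72, 12.62, 12.31 and 14.08 on the C1 arrays, a difference in log2 signal of -0.37 (SE 0.58, limma adjusted p = 0.702). miR-297b-5p had 10.83, 9.26, 9.37 and 10.53 in V0, against 10.04, 9.83, 9.52 and 13.08 in C1 (difference -0.62, SE 0.61, limma adjusted p = 0.513). miR-297c* had 14.02, 12.19, 10.23 and 11.58 in V0, against 9.74, 9.96, 9.29 and 11.10 in C1 (difference 1.98, SE 1.22, limma adjusted p = 0.319). The groups overlapped for all 3 probes, for miR-297c* only through C1 replicate 4 and V0 replicate 3. miR-297c, detected on 0 V0 and 2 C1 arrays, was not tested.

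Most of the miR-669 family was near or below detection. miR-669c had 13.52, 11.28, 10.61 and 9.18 in V0, against 9.11, 9.15, 11.18 and 11.91 in C1, a difference in log2 signal of 0.81 (SE 1.12, limma adjusted p = 0.653). miR-669a, which keeps cardiac progenitors of the mouse from turning into skeletal muscle, was detected on 2 V0 and 1 C1 arrays and had a difference of -0.13, untested. miR-669i was detected on 1 V0 and 2 C1 arrays, miR-669j likewise on 1 V0 and 2 C1 arrays, and miR-669h-5p on 0 V0 and 1 C1 array. miR-669h-3p was detected on 2 V0 and 0 C1 arrays. miR-669k was detected on a single array, C1 replicate 4, at 15.19, where the other C1 arrays had 9.03, 9.08 and 8.95. The signal of miR-669k before normalization was 24519 units on C1 replicate 4 and 357, 426 and 575 units on the others.

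Against C1 no member passed in the fractions between either. In V1 limma passed 0 of 18 members (0.578% of all probes tested) with 7 at an unadjusted p under 0.05 (24.6% of all probes), and in V2 it passed 0 of 18 (0.645%) with 5 (20%). In V3 it passed 0 of 16 members (0.361%) with 3 at an unadjusted p under 0.05 (9.39%). At an unadjusted p under 0.05 the exact rank-sum test gave 7 members in V1, 4 in V2 and 1 in V3. Of all probes tested it gave 82 of 346 in V1, 50 of 310 in V2 and 5 of 277 in V3. After adjustment this test could give no call here either. The linear trend passed 0 of 23 members and 0 of 384 probes (0%), with 5 members at an unadjusted p under 0.05 (24.2% of all probes), and the limma F test of any difference among fractions passed 0 of 23 (0.26%), with 3 (8.59%). The 5 members behind the trend count were miR-669f and miR-466a-3p with a positive and miR-466e-5p, miR-466f-5p and miR-467h with a negative slope towards V0. miR-466f-3p was among the members at an unadjusted p under 0.05 in V1, V2 and V3 but not in V0, and its log2 differences from C1 were 2.92 (V3), 2.49 (V2), 2.11 (V1) and 1.54 (V0). All these comparisons share the 4 C1 arrays.

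**Figure D3:**
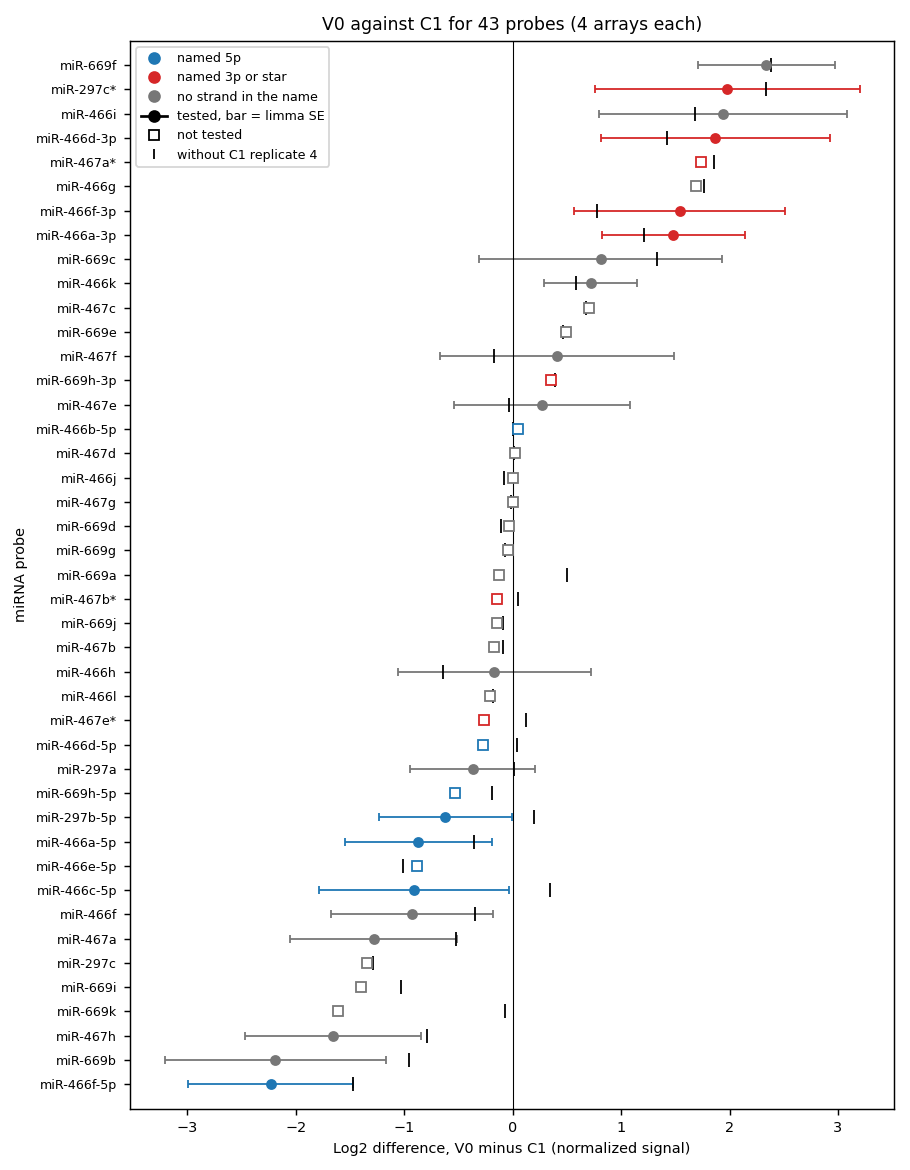
Log2 difference of V0 minus C1 (horizontal axis) for the 43 members (rows), with the limma SE as a bar for the 20 tested (filled circles), open squares for those not tested, colours for the strand in the name, and a black tick for the difference without C1 replicate 4. miR-669f is at the top at 2.34, miR-466f-5p at the bottom at -2.23, and the ticks of many 5p probes lie closer to 0 than their points.

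The members were also grouped by the strand in the name, which 27 of the 43 lack. This grouping was chosen after the values were seen. Of the 8 members named 5p, 7 had a lower mean in V0 than in C1, with a median log2 difference of -0.74. Of the 8 named 3p or star, 6 had a higher mean, with a median of 1.51. Of all 655 probes, 370 had a lower and 285 a higher mean in V0. Both sets of 8 include probes near the floor, such as miR-466b-5p, detected on 0 arrays, and miR-467e*, detected on 1. Over the spots of the 8 members on 4 arrays, the 3p or star probes were detected on 22 of 32 in V0 (68.8%) and on 10 of 32 in C1 (31.2%), while the 5p probes were detected on 19 of 32 in V0 (59.4%) and on 21 of 32 in C1 (65.6%). The share over all probes was 65.4% in V0 and 55.2% in C1. In V3, V2 and V1 the 3p or star probes were detected at 62.5%, 65.6% and 68.8%.

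Paired by name, the array held a probe of each strand for 8 miRNAs, and in 7 of the pairs the 3p or star probe had the higher difference of V0 from C1. In 3 pairs, miR-466a, miR-466f and miR-467a, both probes were detected on at least 10 arrays, and the 3p or star probe was the higher in 3 of these 3, and in 2 of 3 on slide 2. In the other pairs 1 or both probes were mostly below detection, as miR-467b and miR-467e* (1 array each) and miR-466d-5p and miR-669h-5p (3 each), so that their order carries little information. The pairs were -2.23 for miR-466f-5p and 1.54 for miR-466f-3p, -0.87 and 1.48 for miR-466a, -0.27 and 1.87 for miR-466d, -0.53 and 0.35 for miR-669h, -1.34 for miR-297c and 1.98 for its star strand, -1.28 and 1.74 for miR-467a and its star strand, and -0.17 and -0.14 for miR-467b and its star strand. miR-467e was the exception, with 0.27 and -0.26 for the star strand. Without C1 replicate 4 the order held in 8 of 8 pairs, and on slide 2, with 2 V0 arrays and 1 C1 array, in 6 of 8, where miR-466d and miR-466f were turned. The probes share arrays, hairpins share sequence, and the miR-466a-3p, miR-297c* and miR-467a* probes also stand for other hairpins, so the 8 pairs are not replicates.

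The array means showed which arrays carried this. The mean of the 8 3p or star probes minus the mean of the 8 5p probes was 0.27, 1.58, 1.04 and 1.03 on the V0 arrays, against -0.83, -0.97, 0.75 and -2.45 on the C1 arrays. Only its change between arrays can be read, since different probes have different brightness. C1 replicate 3 lay among the V0 arrays, and V0 replicate 1 was the lowest of its fraction. On the arrays between, the value was 0.14 to 1.56 in V3, 0.14 to 1.79 in V2 and 0.41 to 1.25 in V1, so that 3 of the 4 C1 arrays were the only ones below 0. Across the 20 arrays it had, as a description, a Pearson r of 0.51 with the number of detected probes. The median difference of the 5p probes was -0.10 without C1 replicate 4, -0.31 with slide as a fixed block and 0.12 with the count of detected probes as a covariate. That of the 3p or star probes was 0.99, 0.31 and 1.48 in the same settings. With no normalization the medians were 0.47 for the 5p and 2.44 for the 3p or star probes, where that of all probes was 0.73.

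**Figure D4:**
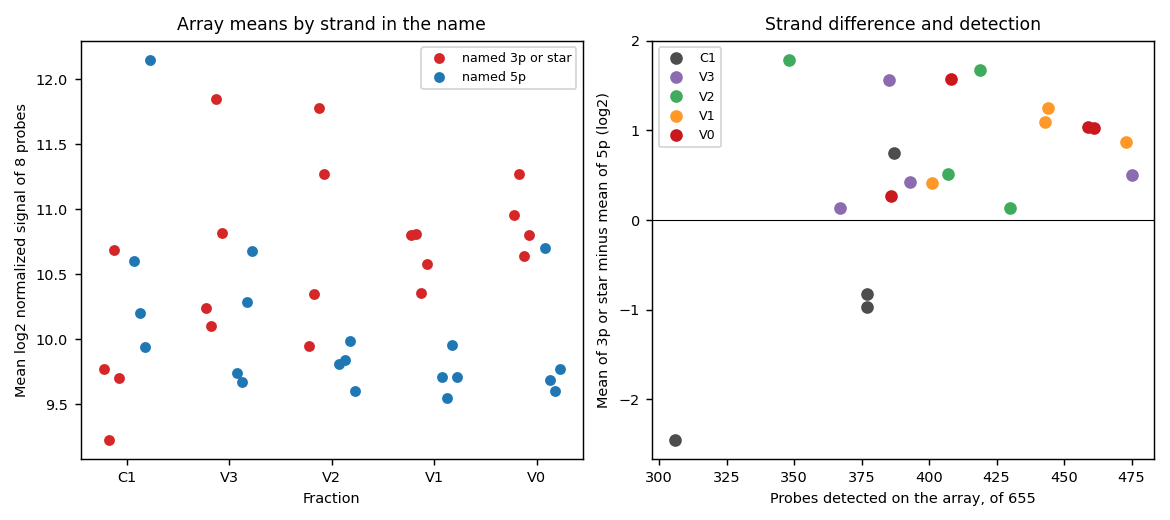
Left, mean log2 normalized signal of the 8 members named 3p or star (red) and of the 8 named 5p (blue) on each array, by fraction. Right, the difference of the means on each array against the number of probes detected on it, coloured by fraction. The 3p or star means are lowest on 3 of the 4 C1 arrays, and C1 replicate 4, with 306 detected probes, has the highest 5p mean, 12.15, and the lowest difference, -2.45.

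Some members also varied together from array to array within fractions. Among the 27 members detected on at least 10 arrays, 8 had a Pearson r of at least 0.7 with miR-467h over the 20 arrays. They were miR-467a (0.97), miR-297b-5p (0.86), miR-466c-5p (0.83), miR-669b (0.80), miR-466f, miR-466f-5p and miR-466a-5p (0.79 each) and miR-297a (0.71). miR-466k, also rich in U and G, had 0.11 with miR-467h, and the C- and A-rich miR-467f had -0.14. With miR-466i, miR-467h had -0.58, and the highest values with miR-466i were those of miR-466f-3p (0.69) and of miR-466h, miR-466d-3p and miR-669h-3p (0.61 each). After the fraction means were taken out, r was 0.97 between miR-467h and miR-467a and 0.82 between miR-467h and miR-297a. These values describe 20 arrays that share depth and normalization. How many of all probes reach an r of 0.7 with miR-467h was not counted, so the 8 cannot be read as a trait of the families. miR-467h itself had an r of -0.70 with the number of detected probes and miR-466f one of -0.81, and before normalization only miR-467a (0.94) and miR-466c-5p (0.93) kept an r with miR-467h of at least 0.7, while miR-466a-5p had 0.14 and miR-297a -0.45.

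More members had their highest value on C1 replicate 4 than on any other array. Of the 40 members detected anywhere, 13 had their highest value there, 9 on V2 replicate 3 and 5 on V3 replicate 4, the arrays with the fewest detected probes (306, 348 and 367). The 13 include miR-467b, which C1 replicate 4 did not detect (9.57). How many of all probes had their highest value on these arrays was not counted, so the counts cannot be read as a trait of the families. Before normalization C1 replicate 4 had 28645 units for miR-669b, 24558 for miR-466c-5p, 23375 for miR-466f-5p and 10861 for miR-467h, where the other C1 arrays had 589 to 1012, 574 to 786, 1200 to 9102 and 1054 to 1309. On the same array the C- and A-rich miR-466i had 368 units and miR-466f-3p 312. The part of low detection in these values was not tested.

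As a comparison, the 72 probes of another large imprinted miRNA cluster, Dlk1-Dio3 on chromosome 12, were counted the same way. Limma passed 0 of 27 tested between V0 and C1, with 4 at an unadjusted p under 0.05, and the median log2 difference over the 72 was -0.22, against -0.13 over the 43 members of the miR-297, miR-466, miR-467 and miR-669 families. For 2 of the 72 all V0 arrays lay above all C1 arrays, and for 1 below. No test of a difference between the clusters was run.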

How the data were processed

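RNA of ileal epithelial fractions from wild type mice (20 arrays, 4 per fraction) was hybridised by the authors to Illumina Universal MicroRNA bead arrays, read on an iScan and summarised in GenomeStudio. They deposited the signal intensity of 655 probes, as read and after quantile normalization with the background left in, together with each probe's detection p-value per array. The version of their software and the build of the annotation are not given in the sources used here.

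Log2 of the normalized intensity was used, and members were picked by name in R 4.3.3 and Python 3. Fractions were compared with limma 3.58.1 (lmFit, eBayes) with all 20 arrays in 1 fit, over probes that at least 1 fraction of the pair (for the trend and the F test, any fraction) detected on all of its 4 arrays at a detection p of at most 0.01, with Benjamini-Hochberg adjustment over all probes tested. This replaces the paired test of the study, since arrays cannot be paired by mouse. The number of arrays limits the precision. The code was tested on simulated data. The members, lists and tests were chosen with earlier results of these data known, and the alternatives with the arrays of fewest detected probes left out, or with the spread taken over all probes, were chosen after seeing the data.

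All members are named. Values of every V0 and C1 array are given for miR-669f, miR-466e-5p, every member tested between V0 and C1, the members whose arrays do not overlap, and the first 3 members in the trend and in the F test. Sequences and gene order come from RefSeq (GRCm38.p6). The array annotation states no build, so no position is given for its probes.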

Additional observations from a re-analysis of the deposited data

Results flagged for a closer look

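In 16 of 110 groups of 4 arrays (22 members in 5 fractions) 1 array lay far from the other 3 (14.5%), where chance flags about 1 in 20 groups (5%). The groups share arrays, and most of the flags fall on arrays with few detected probes or on C1 replicate 3. The rate over all probes on these arrays was not counted, so the 14.5% cannot be read as a result about the members.

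On C1 replicate 4, where fewest probes were detected, miR-669b was at 15.44 (the nearest C1 array at 10.80), miR-466f at 14.39 (12.26) and miR-297b-5p at 13.08 (10.04). On C1 replicate 3 miR-466i was at 14.98 (10.50), miR-466d-3p at 14.19 (8.83) and miR-467e at 12.85 (9.79). On V3 replicate 4, which had the fewest detected probes of its fraction, miR-467h was at 13.08 (10.40), miR-669b at 12.88 (9.94), miR-467e at 11.26 (9.29) and miR-297b-5p at 10.25 (9.38). V3 replicate 3 had 10.55 (10.35) for miR-466c-5p.

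miR-669b was also high on V1 replicate 3, at 12.63 (9.54), and on V2 replicate 3, at 10.17 (9.35), each the array with the fewest detected probes of its fraction. V2 replicate 4 had a low value of 10.66 (11.80) for miR-467a and V1 replicate 2 one of 11.13 (11.76) for miR-466a-5p. miR-669f was low on V0 replicate 3, at 10.04 (11.68), and that array was on slide 2. The part of low detection in these values was not tested.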

How the results depend on the processing

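No paired analysis was possible because no label ties the arrays to single mice and the replicate numbers, given in accession order, only name arrays. Probes near background limit these results, since 23 of the 43 members were not tested between V0 and C1. Of 484 differences of V0 from C1 for 22 members under 22 alternatives each, 41 had the other sign. No member was called with a sign opposite to the reported one. The 484 include alternatives that leave every difference as reported, where the sign was fixed in advance. They are no detection filter, detection on all arrays of both fractions and a fit of the compared fractions alone. The exact rank-sum test, no fold limit and the spread estimated over all probes also belong to them. miR-297a had -0.37 in each. The 41 all come from the remaining alternatives, so the signs are less stable than 41 of 484 reads. The cause was not tested where none is named.

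With no normalization, where the median of all probes moved to 0.73 (-0.06 as reported), 1 member passed between V0 and C1 (miR-669f, 2.99), where 7 of 303 probes passed in all. In this setting 3 members passed the trend, the members' median was 0.65 and 0 members lay lower on every V0 array. The differences were then 0.86 for miR-297a, 0.78 for miR-297b-5p, 0.56 for miR-466a-5p, 0.38 for miR-466e-5p, 0.50 for miR-466f and 1.07 for miR-466h. With arrays centred on their median, the members' median was -0.40 (all probes -0.32) and miR-466h had 0.02. With neqc 1 member passed in V0 (miR-669f), where 5 of 303 probes passed in all, 1 in V3 (miR-466g) and 1 in the trend (miR-669f). Where a count of members that passed has no count over all probes beside it, here or below, none was made. Such a count cannot be read as a result about the families.

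With slide as a fixed block, in which C1 replicate 4 has no weight, miR-297b-5p had 0.12, miR-466c-5p 0.05, miR-466d-3p -0.67, miR-466f-3p -0.53, miR-467e -1.67, miR-467f -1.22 and miR-669c -0.32. With slide as a random block 1 member passed in V3 (miR-466g), miR-467e had -0.42 and miR-467f -0.11. On slide 2 alone, with 1 C1 array, miR-297b-5p had 0.43, miR-466c-5p 0.04, miR-466d-3p -2.91, miR-466f-3p -2.06, miR-466i -1.63, miR-467e -2.39, miR-467f -2.12 and miR-669c -1.29. On slide 3 alone, with 2 V3 and 2 C1 arrays, 7 members passed in V3. They were miR-466g, miR-466i and miR-669f as higher and miR-466a-5p, miR-466f, miR-467h and miR-669b as lower. The number of all probes that passed on slide 3 alone was not counted, so these 7 cannot be read as a result about the families. A fit of V1 and C1 alone passed 1 member (miR-466g).

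With each array's count of detected probes as a covariate 1 member passed in V3 (miR-466g), the members' median was 0.21, and the differences were 0.60 for miR-297a, 0.09 for miR-297b-5p, 0.40 for miR-466a-5p, 0.26 for miR-466c-5p, 0.55 for miR-466f and 0.16 for miR-466h. With the spread estimated over all probes 1 member passed the trend (miR-669f).

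Without the array of each fraction with the fewest detected probes (C1 replicate 4, V3 replicate 4, V2 replicate 3, V1 replicate 3 and V0 replicate 1), 5 members passed between V0 and C1 (miR-669f, miR-466g and miR-467a* as higher, miR-466e-5p and miR-467h as lower), where 79 of 397 probes passed in all. In this setting 1 member passed in V1 (miR-669b), 2 in V2 (miR-466e-5p and miR-669b) and 3 in V3 (miR-466g, miR-467h and miR-669h-3p). The trend passed 1 (miR-669f) and the F test 1 (miR-669b). With fewer arrays to overlap, 8 members lay lower on every V0 array than on every C1 array. The matching counts over all probes were not made for V1, V2, V3, the trend, the F test or the overlap. miR-467f had -0.49.

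Leaving out each array in turn, 0 to 2 members passed the trend (2 without V0 replicate 1, miR-669f and miR-466f-5p, and 0 without any C1 array), 0 to 1 in V2 and 0 to 1 in V3 (1 in each without C1 replicate 3, miR-466f-3p), and 2 to 8 lay lower on every V0 array (8 without V0 replicate 1, and 4 without C1 replicate 3). The differences of V0 from C1 ranged from -0.64 to 0.01 for miR-297a, -0.99 to 0.20 for miR-297b-5p, -1.61 to 0.34 for miR-466c-5p, -0.64 to 0.43 for miR-466h, -0.26 to 1.07 for miR-467e and -0.17 to 1.19 for miR-467f. The low ends of miR-467f and the high ends of the first 3 members were reached without C1 replicate 4. miR-669f kept a difference of 2.18 to 2.76. With an array left out, how many of all probes passed the trend, V2 or V3, or lay lower on every V0 array, was not counted.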
